A study of Gallus gallus with 6 samples.

Results

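Genes that make, bind and read retinoic acid were followed through the chicken feather follicle. They were taken by gene symbol, 7 symbols in all: CRABP1, ALDH1A3, ALDH1A2, CYP26A1, RARA, RARB and RARG. Of these, 3 had a record among the 10964 transcript records of the series, with 1 record each: CRABP1, ALDH1A3 and ALDH1A2. CYP26A1, RARA, RARB and RARG were matched by no symbol, gene identifier or accession and were not analysed here. ALDH1A3 had reads in all 6 libraries, CRABP1 in 5 and ALDH1A2 in 3.

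The 6 libraries were made from total RNA, with 1 library per group. Feathers in growth gave a library each of the mesenchymal pulp (the soft core of the growing feather), the dermal papilla (the mesenchymal cluster at the follicle base) and the feather epithelium, called growth pulp, growth papilla and epithelium below. The papilla of resting follicles gave a library, and wounded, regenerating follicles gave a library at day 2 and a library at day 4. The labels name no genotype and no treatment other than the wound, and they do not state the breed, age, sex or number of birds. No group had a replicate, so no difference below has a replicate check, and the 95% intervals given cover counting error only.

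Retinol carried in blood enters cells through the receptor STRA6, is oxidised to retinaldehyde by retinol dehydrogenases, and becomes retinoic acid through aldehyde dehydrogenases of the ALDH1A family. In the cell, CRABP1 holds retinoic acid in the cytoplasm, CYP26 enzymes break it down, and nuclear receptors (RAR with RXR partners) switch target genes in response to it. Retinoic acid is a classical signal of bird skin, since its application to chick embryos is known to turn scale-forming skin towards feathers.

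Read counts are given as deposited, and scaled CPM is the count relative to the library total, corrected with edgeR's TMM factors. No value was divided by transcript length, so levels are compared between libraries and not between genes. Tables listed no count under 2. An unlisted record was read as having 0 or 1 reads, and a fold that involves one is a bound computed with 3 counts for that library. Such a bound leaves out the counting error of the listed count, which is large at low counts. Library totals were 5683214 in the pulp and 6064791 in the epithelium, against 3269376 to 3410045 in the other 4, and the tables of those 2 libraries also had a different text layout. The pulp and papilla therefore differ in depth and table layout as well as in tissue, while the pulp and epithelium share both. Summed epithelial markers were highest in the epithelium (1915 scaled CPM), summed fibroblast and mesenchyme markers in the pulp (7996 scaled CPM), and summed smooth muscle markers in the growth papilla (27406 scaled CPM). The fibroblast and mesenchyme sum was 5003 to 6595 scaled CPM in the papillae and follicles and 137 in the epithelium. It therefore sets the pulp well apart from the epithelium only. No list of papilla markers was used, so the papilla labels were not checked in this way. PDGFRA, a fibroblast marker on the list, was listed at day 4 alone, and the other 10 fibroblast and mesenchyme markers were listed in the pulp.

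CRABP1, the cytoplasmic retinoic acid binding protein, was read mainly in the growth pulp. It had 8993 reads in the growth pulp, 51 in the growth papilla, 10 in the epithelium, 7 in the resting papilla and 23 at day 4, and it was unlisted at day 2. On the scaled level this was 1547 CPM (1515 to 1579) in the pulp against 15.0 CPM (11.2 to 19.7) in the growth papilla. The pulp value overlapped that of no other library. CRABP1 alone took 0.380% of the listed counts of the pulp library.

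The fold of CRABP1 in pulp over growth papilla was 103 (78.3 to 139). Among 6667 records with at least 20 reads in either library, only a chemokine gene, named CCL26 in the RefSeq gene table, had a larger ratio of scaled CPM + 1. In bulk tissue, fewer expressing cells and less RNA per cell cannot be told apart. Against the epithelium the fold was 645 (351 to 1346). The epithelium shares the pulp's depth and table layout but is another tissue. The part of depth and layout in the fold of pulp over growth papilla was not tested. CRABP1 was 804-fold (390.1 to 2001) higher in the pulp than in the resting papilla, at least 1894-fold higher than at day 2, and 265-fold (176 to 418) higher than at day 4. In those 3 comparisons no other record had a larger ratio of scaled CPM + 1, among 6716 to 6731 records.

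**Figure D1:**
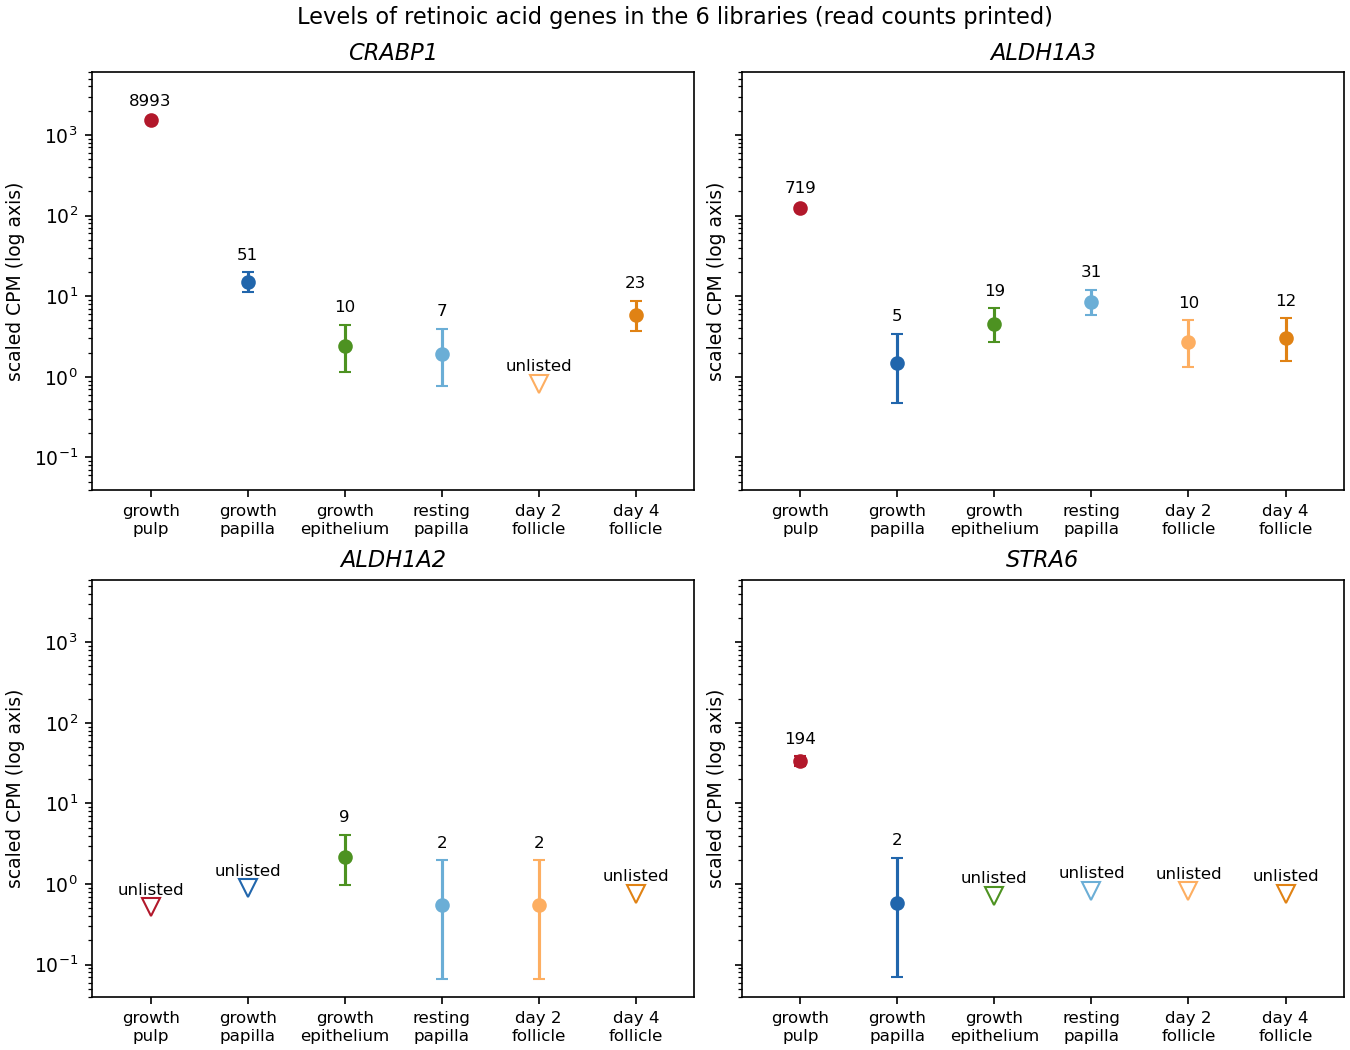
Scaled CPM on a log axis for CRABP1, ALDH1A3, ALDH1A2 and STRA6 in the 6 libraries, with read counts printed above the points. Bars are exact Poisson 95% intervals, and open triangles mark unlisted records at the level of 3 counts. CRABP1 (8993 reads), ALDH1A3 (719) and STRA6 (194) stand highest in the pulp, while ALDH1A2 reaches 9 reads at most, in the epithelium.

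ALDH1A3, an enzyme that oxidises retinaldehyde to retinoic acid, had the same highest library. It had 719 reads in the growth pulp, 5 in the growth papilla, 19 in the epithelium, 31 in the resting papilla, 10 at day 2 and 12 at day 4. The pulp stood at 124 scaled CPM (115 to 133), and the other 5 libraries at 1.47 to 8.52 scaled CPM. The growth papilla, the tissue directly under the pulp, held the lowest value of the 6.

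The fold of ALDH1A3 in pulp over growth papilla was 84.1 (35.9 to 259.7), and 2 of 6667 records, CCL26 and CRABP1, had a larger ratio of scaled CPM + 1. It was 27.1 (17.3 to 45.4) over the epithelium, 14.5 (10.1 to 21.5) over the resting papilla, 45.4 (24.6 to 95.2) over day 2 and 40.6 (23.1 to 78.9) over day 4. ALDH1A3 was thus further from the papilla of growing feathers than from that of resting follicles, as its own counts of 5 and 31 reads show.

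**Figure D2:**
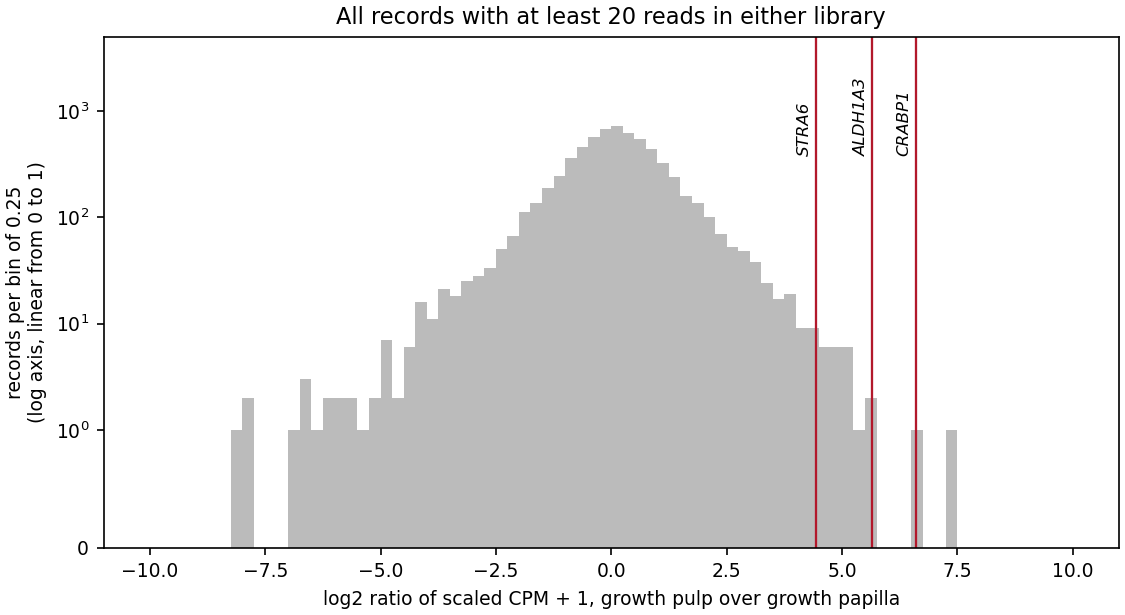
Numbers of records by log2 ratio of scaled CPM + 1 in growth pulp over growth papilla, in bins of 0.25, for 6667 records; the vertical axis is logarithmic above 1. Red lines mark CRABP1 (6.60), ALDH1A3 (5.66) and STRA6 (4.44) at the upper end of the distribution.

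ALDH1A2, the enzyme that supplies retinoic acid in much of the vertebrate embryo, was close to the lower limit of the tables. It had 9 reads in the epithelium, 2 in the resting papilla and 2 at day 2, and was unlisted in the pulp, the growth papilla and the day 4 follicle. It was at least 4.18-fold lower in the pulp than in the epithelium and at least 2.44-fold lower in the growth papilla than in the epithelium. Between pulp and papilla no fold can be given, since neither library listed it. ALDH1A1, the remaining enzyme of the family on the list, had 9 reads in the pulp, 16 in the growth papilla, 47 in the resting papilla, 21 at day 2 and 20 at day 4, and was unlisted in the epithelium. It was 3.04-fold (1.27 to 7.81) lower in the pulp than in the growth papilla, at counts under the minimum for a call, and 8.34-fold (4.04 to 19.4) lower in the pulp than in the resting papilla. Of the 3 ALDH1A genes, ALDH1A3 was therefore highest in the pulp, ALDH1A1 in the resting papilla and ALDH1A2 in the epithelium, the last at 9 reads.

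Outside the pulp, CRABP1 and ALDH1A3 were ordered differently. CRABP1 ran in the order growth papilla (15.0 scaled CPM), day 4 (5.84), epithelium (2.40), resting papilla (1.92) and day 2 (unlisted, under 0.817 at 3 counts). Of neighbours with reads in both libraries, only epithelium and resting papilla did not differ beyond counting error, with a ratio of epithelium over resting papilla of 1.25 (0.428 to 3.86). ALDH1A3 ran in the order resting papilla (8.52 scaled CPM), epithelium (4.56), day 4 (3.05), day 2 (2.72) and growth papilla (1.47). In that order only the epithelium against the resting papilla differed beyond counting error, at a ratio of 0.535 (0.285 to 0.977), while epithelium over day 4, day 4 over day 2 and growth papilla over day 2 had intervals that hold 1.

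The papillae of both phases showed the contrast directly. CRABP1 was 7.80-fold (3.53 to 20.4) higher in the growth papilla than in the resting papilla, with 51 against 7 reads. ALDH1A3 was 5.79-fold (2.23 to 19.1) lower in the growth papilla than in the resting papilla, with 5 against 31 reads, and ALDH1A1 was 2.74-fold (1.53 to 5.18) lower, with 16 against 47 reads. Of 6 measured synthesis and storage genes these ALDH1A genes were the 2 lower in growth, and the other 4 lay within 2-fold, among them RDH12 at 2.00-fold (1.03 to 4.03) higher in the growth papilla. With a pseudocount of 5 CPM the ALDH1A1 call was not kept. Smooth muscle markers moved with the phase, with 6 of 7 higher in the growth papilla (summed level 27406 against 7674 scaled CPM at rest), as did epithelial markers, with 5 of 6 lower (693 against 834 scaled CPM); their part in these differences was not tested. Of the smooth muscle markers with a record, none was unlisted in either papilla, and the epithelial markers PKP1 and JUP were unlisted in both.

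Across regeneration, CRABP1 had 7 reads in the resting papilla, was unlisted at day 2 and had 23 reads at day 4. By the bound it was at least 2.36-fold lower at day 2 than in the resting papilla. The 7 resting reads have an interval of 0.773 to 3.96 scaled CPM, which holds the day 2 level of 0.817 at 3 counts. Counting error alone could therefore cover that difference. CRABP1 was 3.04-fold (1.26 to 8.38) higher at day 4 than in the resting papilla, and by the bound at least 7.15-fold higher at day 4 than at day 2. Even the day 4 level of 5.84 scaled CPM stayed far below the 1547 scaled CPM of the growing pulp. ALDH1A3 was lower at both times after wounding, by 3.13-fold (1.50 to 7.16) at day 2 and by 2.80-fold (1.40 to 5.98) at day 4, each against the resting papilla. ALDH1A1 was likewise 2.26-fold (1.32 to 3.98) lower at day 2 and 2.54-fold (1.48 to 4.53) lower at day 4. These comparisons share the resting papilla library, and they set follicles against a papilla, so tissue differs as well as time. Epithelial and leukocyte markers were read in the resting papilla library too. Summed smooth muscle markers stood at 7674 scaled CPM in the resting papilla, 2209 at day 2 and 2492 at day 4, with 6 of 7 lower at day 2 and 5 of 7 lower at day 4, and none unlisted. Summed epithelial markers stood at 834 scaled CPM in the resting papilla, 1506 at day 2 and 1113 at day 4. Against the resting papilla, 3 of 7 measured were higher and 1 lower at day 2. At day 4, 1 of 6 was higher and 1 lower. The median log2 ratios of scaled CPM + 1 of these markers were 0.05 and 0.17. Summed leukocyte markers stood at 262, 461 and 437 scaled CPM, and the erythroid sum at 11.8, 148 and 146. Of the 2 erythroid markers with a record, EPB42 was unlisted in the resting papilla and at day 4. The part of these cell types in the differences after wounding was not tested.

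The wider retinoid pathway was read from a list of 57 gene symbols, of which 31 had a record and 19 had at least 20 reads in the pulp or the growth papilla. Older and newer names were counted as separate symbols, so RDH11 counted as missing although the RDH12 record now carries that name. Of these 19, the pulp was higher by 2-fold or more, as a ratio of scaled CPM + 1, in 8 and lower in 1, and 10 lay within 2-fold; later counts use the same rule. Over all records, 19.1% were at least 2-fold higher in the pulp and 14.7% lower. The median log2 ratio of scaled CPM + 1 was 0.59 over the list and 0.09 over all records. Scaled on housekeeping genes, which shifted the median of all records to -0.06, the list gave 7 higher and 3 lower. At 16-fold, 3 list genes were higher in the pulp, namely CRABP1, ALDH1A3 and STRA6, whereas 0.615% of all records were.

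STRA6, the cell-surface receptor that takes up retinol, was listed in 2 of the 6 libraries. It had 194 reads in the pulp and 2 in the growth papilla, and it was unlisted in the epithelium, the resting papilla and the follicles at both days. The fold in pulp over growth papilla was 56.7 (15.5 to 472), its width set by the 2 papilla reads. STRA6 was at least 46.4-fold higher in the pulp than in the epithelium and at least 40.5-fold higher than in the resting papilla. STRA6, ALDH1A3 and CRABP1 thus had their highest level in the same library, as did BCMO1. RBP4 was also highest in the pulp, at 7 reads, under the minimum for a call. Other synthesis, storage and binding genes of the list with at least 20 reads in some library peaked elsewhere. ALDH1A1 was highest in the resting papilla, RDH12 at day 4, and ADH5, DHRS3, RDH14, RBP5 and FABP5 in the epithelium. RDH14 was nearly equal in the pulp, with a ratio of pulp over epithelium of 0.969 (0.760 to 1.24). As deposited RPM, RDH14 and DHRS3 were highest at day 2, at 30.59 and 23.25 against 19.79 and 15.17 in the epithelium. Past the read minimum, the pulp was the highest library for 8 of 21 list genes and for 26.4% of 7205 records.

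The steps between uptake and retinoic acid differed less. BCMO1, which cleaves beta-carotene into retinaldehyde, had 45 reads in the pulp against 8 in the growth papilla and was 3.29-fold (1.53 to 8.08) higher in the pulp. RDH12, a retinol dehydrogenase that the current RefSeq gene table names RDH11 at this accession, had 110 reads in the pulp against 28 in the growth papilla and was 2.30-fold (1.51 to 3.61) higher. RDH14, another retinol dehydrogenase, ADH5, an alcohol dehydrogenase, and DHRS3, which returns retinaldehyde to retinol, lay within 2-fold, with ratios of 1.32 (0.991 to 1.76), 1.17 (0.996 to 1.39) and 0.859 (0.589 to 1.26) in pulp over growth papilla. The current RefSeq gene table names the ADH5 record ADH4. RDH10, which makes retinaldehyde for embryonic tissues in the mouse, was unlisted in the pulp and had 5 reads in the growth papilla. LRAT, which stores retinol as esters, had 5 reads in the pulp and 7 in the growth papilla. CYP26B1, of the breakdown enzymes, was listed with 2 reads in the resting papilla and in no other library.

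**Figure D3:**
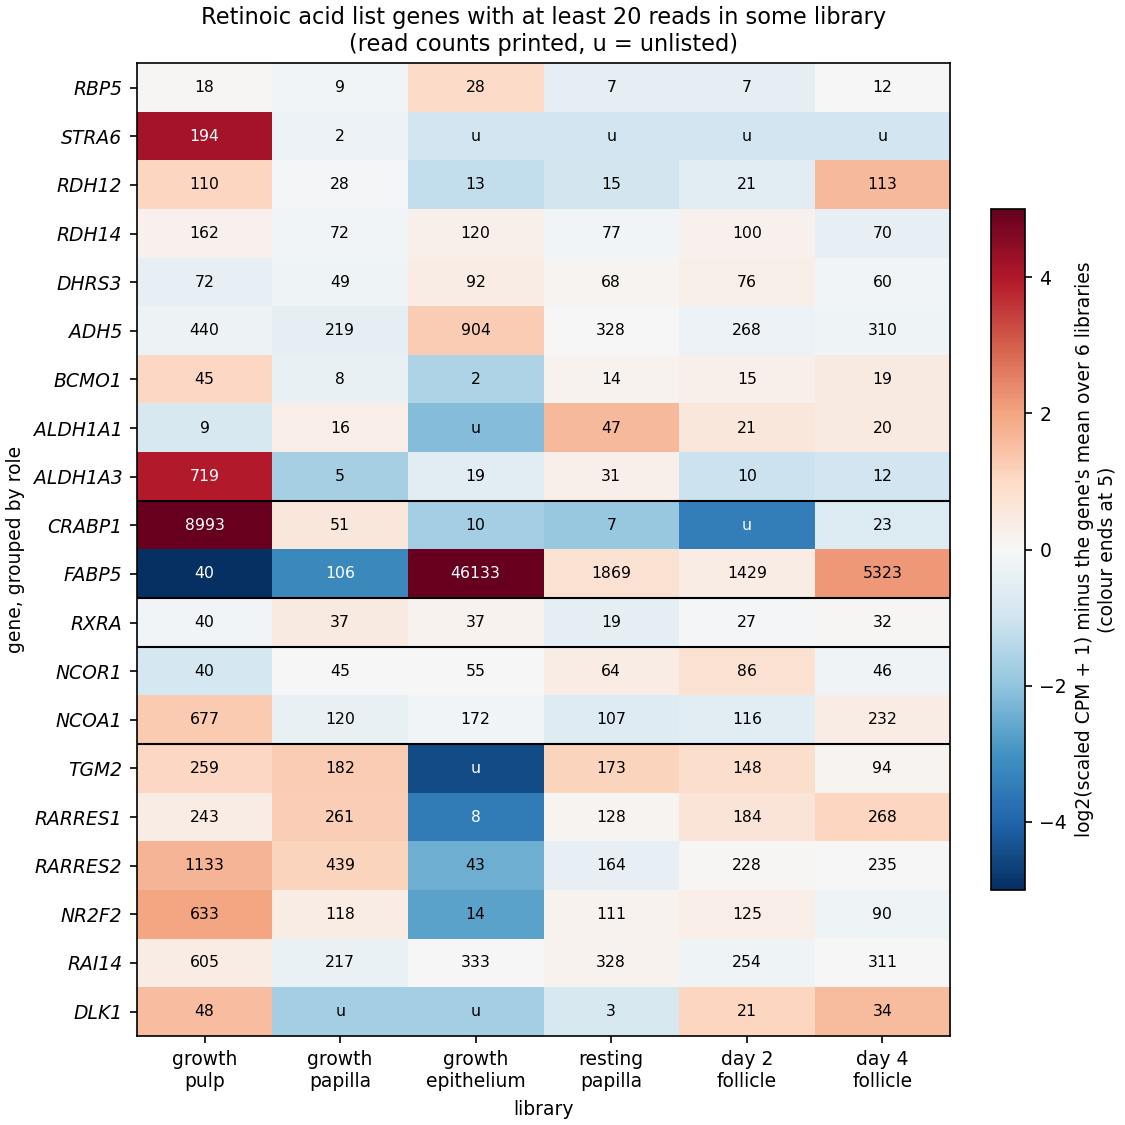
Retinoic acid list genes with at least 20 reads in some library, with 1 not shown, grouped by role (uptake, storage and synthesis, then binding, receptor, cofactors and targets). Colour gives log2 of scaled CPM + 1 minus the gene's own mean over the 6 libraries, and the printed numbers are read counts. CRABP1, ALDH1A3 and STRA6 are dark red in the pulp column, and FABP5 is dark blue there and dark red in the epithelium.

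The other retinoic acid binding protein with a record ran the opposite way to CRABP1 across the pulp, growth papilla and epithelium. Both genes were higher at day 4 than at day 2 and than in the resting papilla. FABP5, a fatty acid carrier that in mammals can also deliver retinoic acid to the nucleus, had 40 reads in the pulp, 106 in the growth papilla, 46133 in the epithelium, 1869 in the resting papilla, 1429 at day 2 and 5323 at day 4. Of the 19 measured list genes it was the 1 at least 2-fold lower in the pulp than in the growth papilla, by 4.53-fold (3.12 to 6.70). It was also 16.5-fold (13.5 to 20.2) lower in the growth papilla than in the resting papilla, and 2.63-fold (2.50 to 2.78) higher at day 4 than in the resting papilla. Summed epithelial markers were 105 scaled CPM in the pulp and 693 in the growth papilla, 1915 in the epithelium, 834 in the resting papilla, 1506 at day 2 and 1113 at day 4; of 9 such markers with a record, 4 were unlisted in the pulp (DSP, PKP1, CLDN1 and JUP) and 0 in the epithelium. Their part in the FABP5 differences was not tested.

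RXRA, the partner of the retinoic acid receptors and the 1 receptor of 6 on the list with a record, had 40 reads in the pulp, 37 in the growth papilla and 37 in the epithelium. Its ratio was 0.632 (0.394 to 1.02) in pulp over growth papilla. The coactivator NCOA1 was 3.30-fold (2.71 to 4.04) higher in the pulp, with 677 reads against 120 in the growth papilla. The corepressor NCOR1 lay within 2-fold, with a ratio of 0.520 (0.331 to 0.814).

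Genes known as retinoic acid targets in other systems had 2 of 6 measured members higher in the pulp than in the growth papilla and 0 lower, where 19.1% and 14.7% of all records were. NR2F2, an orphan nuclear receptor, had 633 reads in the pulp against 118 in the growth papilla and was 3.14-fold (2.57 to 3.85) higher. DLK1, a Notch-related membrane protein, had 48 reads in the pulp and was unlisted in the growth papilla, at least 9.35-fold higher. RARRES2, the precursor of the chemoattractant chemerin, was 1.51-fold (1.35 to 1.69) higher in the pulp, RARRES1 1.84-fold (1.54 to 2.20) lower, and the transglutaminase TGM2 had a ratio of 0.832 (0.686 to 1.01). Those 3 lay within 2-fold, as did RAI14, with 605 reads in the pulp against 217 in the growth papilla.

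**Figure D4:**
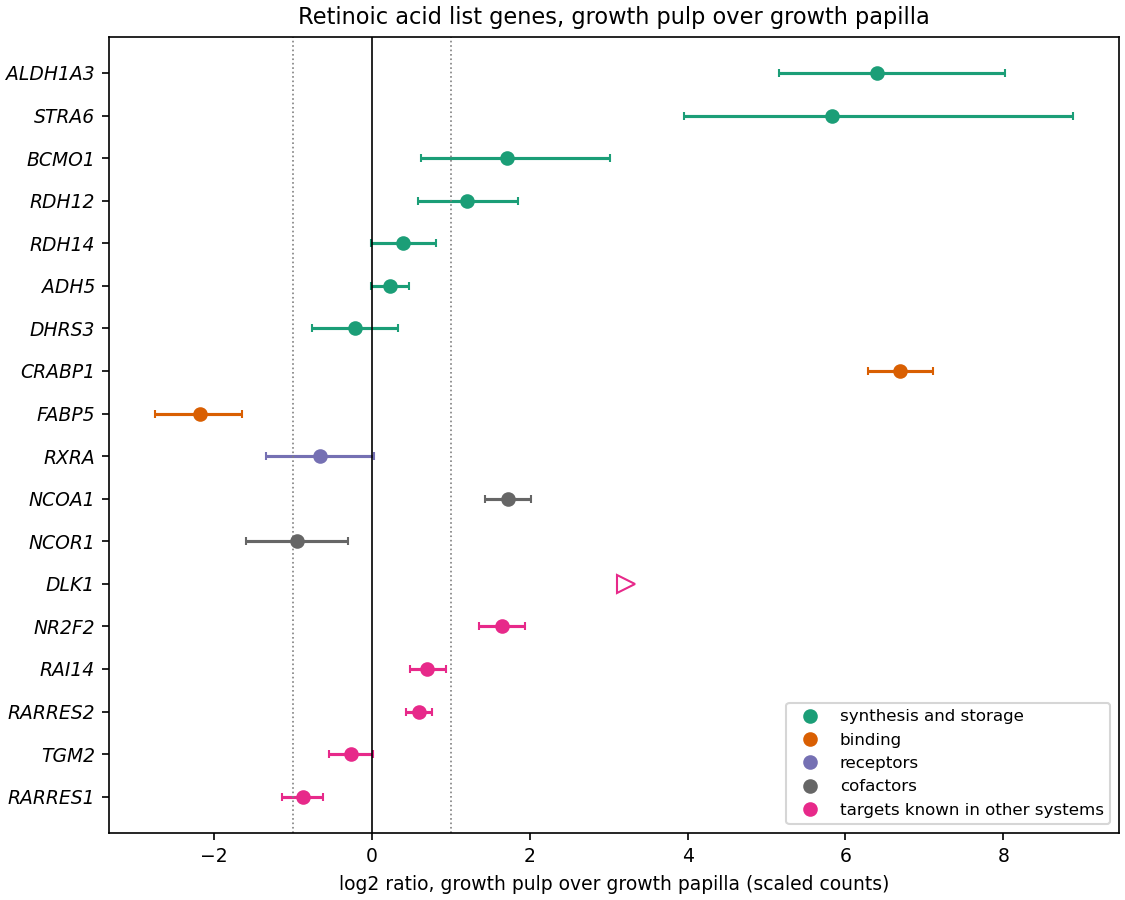
Log2 ratio of scaled counts in growth pulp over growth papilla for measured retinoic acid list genes, with 1 of the 19 not shown, coloured by role. Bars are exact 95% intervals for counting error, the open triangle is a lower bound, and dotted lines mark 2-fold. ALDH1A3, STRA6 and CRABP1 lie near 6 while RXRA, DHRS3 and TGM2 have bars that cross 0.

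Against the epithelium, the pulp was higher by 2-fold or more in 11 of 20 measured list genes and lower in 2, where 26.7% of all records were higher and 20.4% lower. The list median was a log2 ratio of 1.88, and that of all records 0.08. With the deposited RPM values, which shifted the median of all records to 0.61 and made 77.5% of all 2-fold calls higher in place of 56.7%, the list gave 11 higher and 1 lower. Targets made up 5 of the 11: TGM2, unlisted in the epithelium, was higher in the pulp by at least 61.9-fold, NR2F2 was 32.4-fold (19.2 to 59.7) higher, RARRES1 21.8-fold (10.9 to 51.1) higher, RARRES2 18.9-fold (13.9 to 26.3) higher and DLK1 at least 11.5-fold higher. The other 6 were CRABP1, ALDH1A3, STRA6, BCMO1 at 16.1-fold (4.22 to 137), RDH12 at 6.07-fold (3.41 to 11.8) and NCOA1 at 2.82-fold (2.39 to 3.36). The lower genes were FABP5, with 40 reads in the pulp against 46133 in the epithelium, and ADH5, by 2.86-fold (2.55 to 3.22). Cell type markers differed too. Fibroblast and mesenchyme (10 of 10), endothelial (10 of 10) and leukocyte (7 of 7) markers were higher in the pulp. Epithelial markers were lower there in 6 of 7 and melanocyte markers in 6 of 6, and smooth muscle markers were higher in 3 of 6 and lower in 1. The part of these cell types in the pulp over epithelium differences was not tested.

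Of 20 list genes measured in the pulp or the resting papilla, the pulp was higher in 8 and lower in 3, against 21.2% and 16.2% of all records. Over day 2 it was higher in 7 of 20 and lower in 3, against 18.7% and 13.6%, and over day 4 it was higher in 5 of 20 and lower in 2, against 15.9% and 11.5%. With deposited RPM the list counts over day 4 were the same, and 45.5% of all 2-fold calls were higher in the pulp in place of 58.1%. The 5 over day 4 were ALDH1A3, CRABP1, NR2F2, RARRES2 and STRA6. These comparisons share the pulp library.

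The growth papilla, like the pulp, was set against the epithelium. Over the epithelium, 6 of 16 measured list genes were higher in the growth papilla and 3 lower, where 25.0% of all records were higher and 22.7% lower. With deposited RPM the list gave 6 and 2, and 72.2% of all 2-fold calls were higher in place of 52.4%. In the growth papilla RARRES1 was 40.0-fold higher than in the epithelium (261 against 8 reads), TGM2 at least 74.5-fold, RARRES2 12.5-fold (9.15 to 17.6) and NR2F2 10.3-fold (5.93 to 19.5). CRABP1 itself was 6.26-fold (3.14 to 13.8) higher in the growth papilla than in the epithelium, with 51 against 10 reads. ALDH1A3 was 3.10-fold (1.12 to 10.6) lower in the growth papilla than in the epithelium, with 5 against 19 reads, too few for a call. Fibroblast and mesenchyme (10 of 10), smooth muscle (7 of 7), endothelial (7 of 7) and leukocyte (4 of 4) markers were higher in the growth papilla. Epithelial markers were lower there in 6 of 7 and melanocyte markers in 6 of 6. Their part in these differences was not tested.

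Between the papillae, 3 of 17 measured list genes were higher in growth than at rest and 3 lower, against 9.35% higher and 7.97% lower of all records. Of all 2-fold calls 54.0% were higher in growth, against 41.3% with deposited RPM (list 2 higher and 3 lower) and 68.3% with housekeeping scaling (list 4 and 3). The higher ones were CRABP1, RARRES2 at 2.87-fold (2.39 to 3.45) and RARRES1 at 2.18-fold (1.76 to 2.72), and the lower ones ALDH1A1, ALDH1A3 and FABP5. With a pseudocount of 5 CPM the list gave 3 higher and 2 lower between the papillae, without ALDH1A1. After wounding, 1 of 16 measured list genes, DLK1, was higher at day 2 than in the resting papilla, against 7.03% of all records, and 2 were lower (ALDH1A1 and ALDH1A3), against 6.0%. At day 4, 4 of 17 were higher than in the resting papilla (CRABP1, FABP5, RDH12 and DLK1), against 8.23% of all records, and the same 2 ALDH1A genes were lower, against 6.9%. With a pseudocount of 5 CPM the list gave 0 higher and 0 lower at day 2 and 3 higher and 0 lower at day 4, so neither ALDH1A call was kept. With deposited RPM the day 4 list gave 6 higher and 2 lower, and 64.5% of all 2-fold calls were higher in place of 54.4%. RDH12 had 15 reads in the resting papilla, 21 at day 2 and 113 at day 4, a 6.96-fold (4.05 to 12.8) higher level at day 4 than at rest. DLK1 had 3 reads in the resting papilla, 21 at day 2 and 34 at day 4. Between day 4 and day 2, CRABP1, FABP5 and RDH12 were higher and 0 list genes lower, against 3.77% and 3.84% of all records. With housekeeping scaling the list counts were the same, and 61.8% of all 2-fold calls were higher at day 4 in place of 49.6%.

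Markers of other cell types also differed between pulp and growth papilla. Leukocyte markers were at least 2-fold higher in the pulp in 6 of 7 measured, with a summed level of 1325 against 273 scaled CPM, and PTPRC was unlisted in the papilla. Melanocyte markers were higher in 3 of 4 (33.7 against 8.24 scaled CPM), with TYR, TYRP1 and MLANA unlisted in the papilla and SOX10 in the pulp. Smooth muscle markers were lower in 7 of 7 (683 against 27406 scaled CPM), epithelial markers were lower in 4 of 5, and endothelial markers were higher in 3 of 10 (410 against 307 scaled CPM). Fibroblast and mesenchyme markers were mixed, higher in 3 of 10 and lower in 2 (7996 against 6205 scaled CPM). Over the 6 libraries the leukocyte, erythroid, and fibroblast and mesenchyme sums were largest in the pulp, as were CRABP1, ALDH1A3 and STRA6. The fibroblast and mesenchyme sum was not far lower in the resting papilla (5003 scaled CPM), at day 2 (6595) and at day 4 (6100). The melanocyte sum was largest in the epithelium (650.4 scaled CPM) and the endothelial sum at day 2 (448 scaled CPM). The part of these cell types in the pulp differences was not tested. The nerve and glia list rested on 3 genes with a record (7.74 scaled CPM in the pulp against 8.24 in the growth papilla) and the erythroid list on 2 (357 against 98.0 scaled CPM). Of these, SOX10 and GAP43 were unlisted in the pulp, and EPB42 was unlisted in both libraries, so each erythroid sum is that of 1 gene.

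Records with the profile most like each gene were ranked by Euclidean distance between centred log2(scaled CPM + 1) values over the 6 libraries, among 2495 named records that reached 200 reads in any library. Nearest to CRABP1 were CCL26 (distance 3.15), FAIM2, an inhibitor of Fas signalling (3.43), POMC, the precursor of melanocortin peptides (3.48), EGFL6, a secreted matrix protein (3.59), and STMN4, a tubulin-binding protein (3.65). FAIM2, POMC and STMN4 had 428, 654 and 320 reads in the pulp, 19, 43 and 18 in the growth papilla and 16, 33 and 11 at day 4, and they were unlisted in the other 3 libraries. CRABP1 had its 3 highest values in the same libraries, in the same order. CCL26 was listed in the pulp alone, with 1003 reads. EGFL6 had 637 reads in the pulp, 7 in the growth papilla, 9 in the resting papilla and 19 at day 4.

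**Figure D5:**
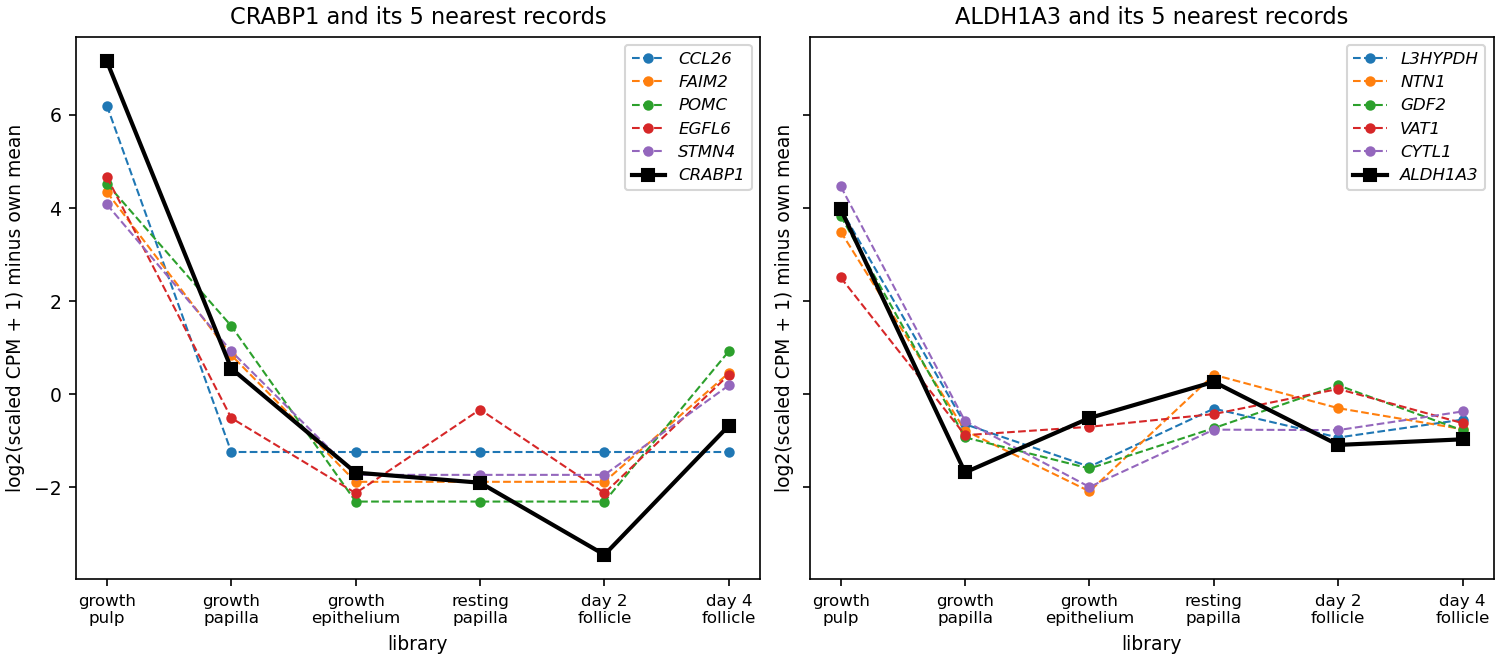
Centred log2(scaled CPM + 1) profiles over the 6 libraries for CRABP1 (left, black) and ALDH1A3 (right, black) with the 5 nearest records of each (dashed). Records near CRABP1 lie above the epithelium and resting papilla again in the growth papilla, except CCL26 and EGFL6, and those near ALDH1A3 drop to a lower level in every library other than the pulp.

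Nearest to ALDH1A3 were L3HYPDH, a proline metabolism enzyme (distance 1.64), NTN1, the guidance molecule netrin (2.05), GDF2, a BMP family ligand (2.10), VAT1 (2.21) and CYTL1, a secreted protein (2.27). NTN1 had 272 reads in the pulp, 5 in the growth papilla, 17 in the resting papilla, 9 at day 2 and 6 at day 4, and was unlisted in the epithelium. Like ALDH1A3, it had more reads in the resting papilla than in the growth papilla. The distance between CRABP1 and ALDH1A3 was 5.17, which placed ALDH1A3 at rank 22 around CRABP1 and CRABP1 at rank 1750 around ALDH1A3. Profiles were centred and not scaled, so the size of the pulp excess enters each distance along with the order of the libraries. Both genes were highest in the pulp, CRABP1 at 1547 and ALDH1A3 at 124 scaled CPM, and their orders over the other libraries differed. The ranks do not separate size from order. Libraries with few or no reads add counting noise to every distance.

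Genes that neighbour CRABP1 and ALDH1A3 had smaller ratios than these genes, as nearly any gene would. Only 1 and 2 of 6667 records had larger ratios in pulp over growth papilla than CRABP1 and ALDH1A3, so the values below are description only. The nearest protein-coding neighbours on either side with at least 20 reads, in the gene order of the RefSeq table for GRCg7b, were IREB2 and WDR61 beside CRABP1 and ASB7 and CHSY1 beside ALDH1A3. Their log2 ratios of scaled CPM + 1 in pulp over growth papilla were 0.49, -0.45, 0.87 and 0.23. Around STRA6 they were SEMA7A at 1.77, with 49 reads in the pulp against 6 in the growth papilla, and ISLR at 0.81.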

How the data were processed

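Counts per RefSeq transcript record were deposited by the authors as whole numbers, with none under 2, per the file headers and values. The authors also deposited RPM values, under the heading TPM: each count relative to a library total, recovered here from records with at least 500 counts, and not to length. The submitters' processing notes name the mouse build mm10 although the records are chicken; the sources used here do not give aligner, counter or strand, so antisense reads cannot be told apart. LOC numbers were named through the RefSeq gene table (5008 by gene identifier, 10 by accession; 1125 unnamed).

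TMM factors came from edgeR 4.0.16 in R 4.3.3; other steps used Python 3.11.15 with pandas 2.3.3, scipy 1.17.1 and matplotlib 3.10.9. Folds are ratios of scaled counts with exact conditional binomial 95% intervals. Calls used log2 of scaled CPM + 1, at least 20 reads in the higher library and 2-fold, with no test, since each group had 1 library. The procedure was run on simulated Poisson counts, the model that the intervals assume. Recovery of planted changes and interval coverage were checked for records expected at 20 reads or more in both libraries. That check does not cover unlisted records, lower counts or variation between birds. Listed counts were 40.0% to 44.5% of library totals.

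The members, the lists and the comparisons were chosen with earlier results of these data known. Named genes were the 7 symbols, list genes past 2-fold in pulp over growth papilla or over epithelium, and the 5 records nearest to CRABP1 and to ALDH1A3. Other list genes, chromosomal neighbours and the records of the closing part were named after their values were seen. Alternatives were 5 other scalings, other pseudocounts, minimums and fold rules, and summed records. A planned search for retinoic acid response elements in promoters was not run. The values of 1 list gene are not reported here, though the counts over the list include it.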

Additional observations from a re-analysis of the deposited data

How the results depend on the processing

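Of 154 alternative values for the 22 ratios of CRABP1, ALDH1A3 and ALDH1A2, 150 stayed within the main counting interval and 0 changed sign. The remaining 4 concern CRABP1 in pulp over day 2, whose bound of 10.89 (log2) became 10.85 with upper quartile scaling, 10.75 with deposited RPM, 10.94 with housekeeping scaling and 10.60 with a pseudocount of 1 CPM. Summing records, 1 of the alternatives, could not move these 22 ratios, since each of the genes had 1 record. In pulp over growth papilla the log2 ratio ranged from 6.52 to 6.73 for CRABP1 and from 5.66 to 6.43 for ALDH1A3. For the other named genes 770 of 791 values stayed within the interval. Of their ratios past 2-fold, 0 changed sign, and smaller ratios were not counted for sign. NCOA1 is an example of a smaller ratio that did change, at 0.856 in growth papilla over epithelium but 35.19 against 28.36 as deposited RPM. Of 19 measured list genes, 1 was at least 2-fold lower in pulp than in growth papilla. This became 3 of 19 with housekeeping scaling, 3 of 29 with no minimum and 0 of 9 at a minimum of 200 reads. Those higher numbered 8 of 19, against 4 of 9 at 200 reads and 4 of 19 at 4-fold. Of all 6667 records there, 1271 were higher and 980 lower, and 810 were higher with a pseudocount of 5. These became 502 and 299 of 2226 at 200 reads and 410 and 301 of 6667 at 4-fold. In pulp over epithelium the list had 11 of 20 higher, against 7 of 10 at 200 reads. It had 2 of 20 lower, against 1 of 20 with deposited RPM, 4 of 28 with no minimum and 1 of 20 at 4-fold. Of all 6851 records there, 1832 were higher and 1398 lower, and 761 were lower with deposited RPM. These became 767 and 577 of 2440 at 200 reads and 1013 and 463 of 6851 at 4-fold. Fewer genes pass a stricter rule by construction; for the scalings the cause was not tested. With a minimum of 5 scaled CPM, chosen after seeing the data, the list counts were 8 and 1 over papilla and 11 and 2 over epithelium. In the other 8 comparisons 265 of 352 counts stayed within 1.5 times and 87 did not, among them the lower ALDH1A calls after wounding, 2 at each day against 0 with a pseudocount of 5. Without the epithelium the 5 records nearest to CRABP1 were the same, while 2 of the 5 nearest to ALDH1A3 (NTN1 and L3HYPDH) remained. At a minimum of 50 reads 1 of the 5 nearest to ALDH1A3 (L3HYPDH) remained, and STRA6 was the fifth nearest. No paired analysis was possible because each group had 1 library, and for the same reason no library of a comparison could be left out. Members with under 20 reads in a pair, ALDH1A2 above all, are limited by depth.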

Other observations

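Records named for retinoids outside the list, picked after the data were seen, numbered 5, of which 2 had a ratio whose interval leaves out 1, both in pulp over epithelium. RAI2, annotated as retinoic acid induced, had 220 reads in the pulp, 130 in the growth papilla, 31 in the epithelium, 83 in the resting papilla, 161 at day 2 and 161 at day 4. Its ratio was 0.989 (0.793 to 1.24) in pulp over growth papilla and 5.09 (3.49 to 7.68) in pulp over epithelium. RDH16, a retinol dehydrogenase (LOC776432 in the tables), had 41 reads in the pulp, 20 in the growth papilla and 7 in the epithelium. Its ratios were 1.20 (0.686 to 2.16) in pulp over growth papilla and 4.20 (1.87 to 11.1) in pulp over epithelium. A partial retinol saturase record, LOC776277, had 7 reads in the pulp, 9 in the growth papilla and 2 in the epithelium, and both of its intervals hold 1. BRINP2 had at most 4 reads in any library and RLBP1 at most 2, too few for a fold.

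The libraries in which list genes peaked were also counted. Of 21 list genes with at least 20 reads in some library, 8 were highest in the pulp (38.1%), where 26.4% of 7205 records were. In the epithelium 5 list genes were highest (23.8%, against 28.4% of all records), in the growth papilla 4 (19.0%, against 15.7%), in the resting papilla 1, ALDH1A1 (4.76%, against 13.0%), at day 2 also 1 (4.76%, against 9.63%) and at day 4 2 (9.52%, against 6.81%). The RDH14 and DHRS3 peaks counted in the epithelium lay at day 2 as deposited RPM.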
